A study of Homo sapiens with 42 samples.

Results

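Some m6A-seq peaks in HepG2 cells reached 1000 bases or more in a single block, that is, without an intron inside them. These long peaks were taken from each of 7 peak lists by that rule, with repeated rows counted once, and numbered 3105 of 211410 peaks over the lists. The mark is N6-methyladenosine (m6A), a methyl group on adenosines inside messenger RNA. An antibody against m6A enriches mRNA fragments that carry it, and these immunoprecipitated (IP) fragments are sequenced next to unselected RNA, the input. A peak is a stretch of a transcript with more IP than input reads.

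HepG2 is a human hepatocellular carcinoma line. All groups carried a lentiviral short hairpin RNA (shRNA) under puromycin selection: a non-specific control shRNA, an shRNA against METTL3, METTL14 or WTAP, or either of 2 shRNAs against SETD2 (#1 and #2). The labels give SETD2 #2 a control of its own, called here the second control, so that METTL3, METTL14, WTAP and SETD2 #1 share the other control. Each of the 7 conditions had 3 input and 3 IP libraries, 42 samples in all, which the authors joined into 1 peak list per condition. No value below has a replicate error for that reason. The labels do not say whether the 3 replicates came from separate cultures.

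The writer complex of m6A has METTL3 as its catalytic part. METTL14 pairs with METTL3 and helps it bind RNA, and WTAP is an adaptor that brings the pair to nuclear speckles. SETD2 trimethylates lysine 36 of histone H3 along transcribed genes. In mammalian mRNA, m6A is known to gather in long internal exons, near stop codons and in 3′ untranslated regions, where neighbouring methylated sites can lie close together. RNA fragments overlap, so a cluster of sites can be read as 1 wide peak, and a wide peak does not count its sites.

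The control list held 627 long peaks of 33672 (1.86%, exact 95% interval 1.72 to 2.01), and the METTL3 list 481 of 30352 (1.58%). METTL14 had 415 of 28841 (1.44%), WTAP 410 of 29392 (1.39%) and SETD2 #1 446 of 28645 (1.56%). The second control had 370 of 31249 (1.18%, 1.07 to 1.31) and SETD2 #2 356 of 29259 (1.22%, 1.09 to 1.35). Long peaks were therefore most frequent in the control list and least frequent in the second control, and the 4 lists compared with the control lay between them. All 5 lists of the METTL3, METTL14, WTAP and SETD2 #1 set had higher shares than both lists of the SETD2 #2 set. The intervals of METTL14 (1.30 to 1.58) and WTAP (1.26 to 1.54) overlapped those of the SETD2 #2 set. Those of METTL3 (1.45 to 1.73), SETD2 #1 (1.42 to 1.71) and the control did not.

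Their lengths were alike across lists. The median was 1271 bases in the control, 1258 to 1260 in the 4 knockdowns that share it, 1200 in the second control and 1228 for SETD2 #2. The longest was 5548 bases in the control, 5040 in METTL3, 4648 in METTL14, 4830 in WTAP, 5518 in SETD2 #1, 3832 in the second control and 3712 in SETD2 #2. The median of all single-block peaks was 210 to 211 bases. Long peaks made up 7.06% of all peak bases in the control list and 5.21% to 6.33% in the other lists.

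**Figure D1:**
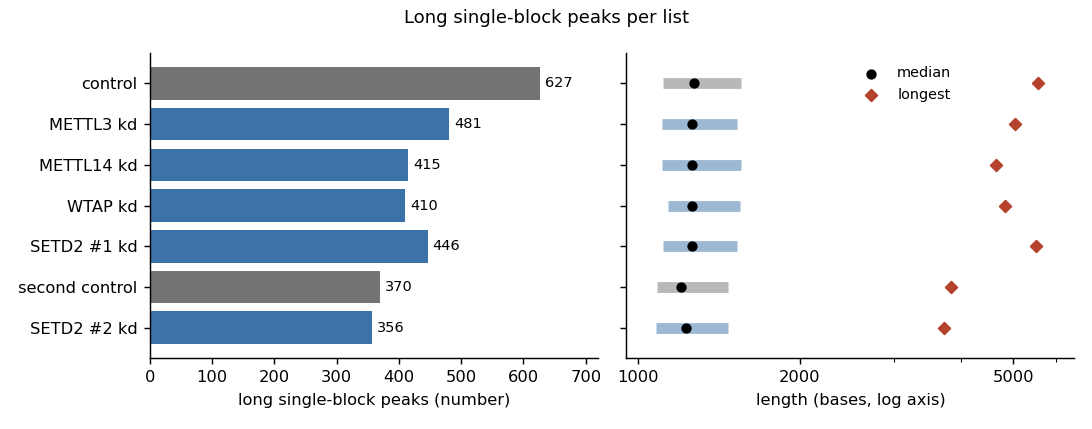
Left, number of long single-block peaks in each list (control lists grey, knockdown, kd, lists blue). Right, their length in bases on a log axis, with the interquartile range as a bar, the median as a dot and the longest as a diamond. The control has 627 long peaks and the second control 370, while all 7 medians lie between 1200 and 1271 bases.

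The long peaks were strong peaks of their lists. Fold enrichment, IP over input, and the p-value are the authors' values and are used only within a list. In the control list the median fold enrichment was 25.7 for long peaks and 5.90 for shorter single-block peaks, and the median log10 p was -163 against -7.39. In the METTL3, METTL14 and WTAP lists, long peaks had medians of 29.9, 25.4 and 30.4 against 5.89, 5.98 and 5.88 for the shorter ones. SETD2 #1 gave 19.1 against 4.97. The second control gave 9.72 against 4.07 and SETD2 #2 7.76 against 3.75. A wider peak holds more reads, so its p-value is not independent of its width.

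The files give a gene identifier for each peak and no symbol, and 0 of 17005 identifiers could be matched to one, so genes are described by position in build hg19. The 627 long peaks of the control lay in 597 genes, of which 29 had 2 or more. The other lists had 333 to 458 such genes each, and 109 genes had a long peak in all 7 lists. In the control list 122 long peaks (19.5%) shared bases with a peak called on the opposite strand. It was 11.2% for all control peaks and 15.3% for control peaks of 700 to under 1000 bases. In the other lists the share of long peaks ran from 10.4% in SETD2 #2, against 13.8% of peaks of 700 to under 1000 bases, to 20.0% in METTL3, against 15.7%.

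Chromosome 16 was rich in long peaks. It held 70 of the 627 in the control list, 11.2% (exact 95% interval 8.81 to 13.9), and 6.82% of all control peaks. The share of long peaks on chromosome 16 was 11.1% to 12.6% in all 7 lists, against 6.61% to 7.58% of all peaks, and in each list the lower bound of the interval lay above the share of all peaks. Chromosome 20 held 4.63% of control long peaks (3.12 to 6.58) and 2.86% of all control peaks. In SETD2 #2 it held 28 of 356, or 7.87% (5.29 to 11.2), against 3.05% of all peaks. In METTL3 (4.57%, 2.89 to 6.84, against 3.01%) and SETD2 #1 (4.48%, 2.76 to 6.84, against 2.95%) the interval held the share of all peaks. Chromosome 12 went the other way in the control, with 2.87% (1.71 to 4.50) against 4.90%, and had 4.59% against 4.83% in the second control. These chromosomes were picked from values for all autosomes and X. Joined over the lists, 294 of 946 places (31.1%) were long in a single list and the rest in several. The values of the 7 lists are therefore not independent.

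Within their gene, long peaks tended to the 3′ side. Peaks of a gene were ordered 5′ to 3′ by midpoint. Of the 530 control long peaks in genes with several peaks, 249 were the 3′-most, 47.0% against 31.0% of all peaks in such genes. Another 101 were the 5′-most, 19.1% against 31.0%, and 180 lay between, 34.0% against 37.9%. The 3′-most share was 48.0%, 45.5%, 43.3% and 42.4% in METTL3, METTL14, WTAP and SETD2 #1, against 30.2% to 31.7% of all peaks. It was 36.7% in the second control and 36.7% in SETD2 #2, against 31.5% and 32.0%. In these 2 lists the middle place was the most frequent, with 41.8% and 41.9%. Where the gene had 3 or more peaks, the 3′-most share was 41.5% of 369 long peaks in the control against 23.9% of all peaks, and it lay nearer to all peaks in the second control (27.0% against 24.4%) and SETD2 #2 (26.1% against 24.7%). The 5′-most share of long peaks was then 9.76% in the control and 14.6% in the second control, against 23.9% and 24.4%. The remaining 97 control long peaks (15.5%) were the only peak of their gene, and 17.7% of all control peaks were.

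A long peak usually held most of its gene's peak bases. In genes with several peaks, 466 of the 530 control long peaks (87.9%) were the widest of the gene, and they covered a median of 59.9% of its peak bases. In the other lists they were the widest in 85.7% to 91.1%, a share that their choice by length favours. The median number of peaks per gene was 3 for long peaks and 3 for all peaks.

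**Figure D2:**
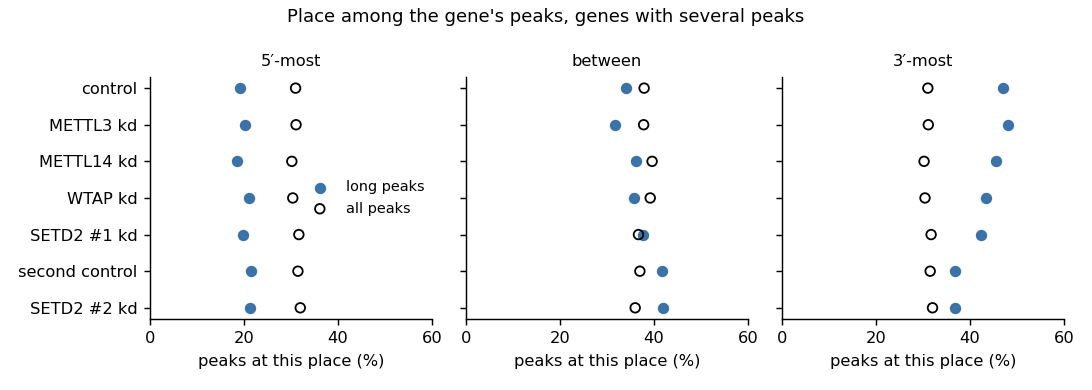
Share of peaks (%) that were the 5′-most, between, or the 3′-most of their gene, in genes with several peaks, for each of the 7 lists. Filled circles are long peaks and open circles all peaks of the list. Long peaks lie to the right of all peaks in the 3′-most panel of every list, from 36.7% to 48.0%.

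What became of the long peaks in another list was described by 5 measures. A long peak was absent when no peak on its strand shared 1 or more bases with it, and split when it overlapped 2 or more peaks that shared no base with each other. It was narrower when the overlapping peaks together held fewer bases than it did, and still long when they included a single-block peak of 1000 bases or more. Bases covered is the percentage of the members' bases that lay under peaks of the other list. The members are chosen by their width in 1 list, so values for all peaks, for the opposite search and for the pair of controls are given too. Values for single-block peaks of 700 to under 1000 bases are also given, but not for still long or for the opposite search.

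By 4 of these measures the control long peaks differed more in the second control than in any knockdown that shares the control. Absence was rare in each of these lists, at 0 to 3 long peaks. Of the 627 control long peaks, 3 were absent from the second control (0.478%), where 28.6% of all control peaks were. In the second control 339 were split (54.1%, exact 95% interval 50.1 to 58.0), against 6.93% of all peaks. Of the 624 with a peak, 560 were narrower (89.7%), against 60.4% of all, and 221 stayed long (35.2%), against 1.24% of all peaks, most of which are short to begin with. In all, 77.2% of their bases were covered, against 64.7% for all control peaks. The 850 control peaks of 700 to under 1000 bases were absent in 1.65%, split in 33.6% and narrower in 87.3%, with 70.4% of bases covered. The opposite search found 0 of the 370 second-control long peaks absent from the control, which allows a share of up to 0.811%, against 15.6% of all. Of them 19 were split (5.14%, against 1.26%), 42 narrower (11.4%, against 19.9%) and 227 still long (61.4%, against 3.72%), and 97.8% of their bases were covered, against 85.3%. Both lists come from cells with a non-specific control shRNA, so a knockdown and its set cannot be told apart in any comparison across the sets.

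All long peaks of the control met a peak in the METTL3 list, but many were split or narrower there. None of the 627 was absent, which allows a share of up to 0.478%, against 22.8% of all control peaks. In the METTL3 list 201 were split (32.1%, 28.4 to 35.9), against 4.94% of all. A total of 429 were narrower (68.4%), against 54.2%, and 381 still long (60.8%, 56.8 to 64.6), against 1.70%. Their bases were covered to 89.5%, against 77.1% for all control peaks. Control peaks of 700 to under 1000 bases were split less often (26.5%) and narrower more often (73.3%) than the long peaks. They were absent in 0.353%, with 82.7% of their bases covered. In the opposite search, 38 of 481 METTL3 long peaks were split in the control (7.90%, against 2.03%), 111 were narrower (23.1%, against 20.7%) and 384 still long (79.8%, against 3.23%). None was absent, which allows up to 0.624%, against 10.6% of all METTL3 peaks, and 97.5% of bases were covered, against 89.4%.

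In the METTL14 list fewer of the control long peaks were whole. In that list 1 control long peak was absent (0.159%), against 29.8% of all peaks, and 264 were split (42.1%, 38.2 to 46.1), against 5.96%. Of 626 with a peak, 494 were narrower (78.9%), against 60.0%, and 306 of the 627 were still long (48.8%, 44.8 to 52.8), against 1.45%. The share of bases covered was 82.3%, against 68.7%. Peaks of 700 to under 1000 bases were absent in 1.29%, split in 30.6% and narrower in 83.3%, with 72.4% of bases covered. In the opposite search 37 of 415 METTL14 long peaks were split (8.92%, against 1.95%), 76 of 411 narrower (18.5%, against 18.5%) and 314 still long (75.7%, against 3.66%). Absent were 4 (0.964%, against 12.7%), and 94.9% of bases were covered, against 87.2%.

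WTAP knockdown gave values close to those of METTL14. There 1 member was absent (0.159%), against 28.8% of all peaks, 259 were split (41.3%, 37.4 to 45.3), against 5.77%, and 492 of 626 narrower (78.6%), against 59.6%. A total of 302 were still long (48.2%, 44.2 to 52.2), against 1.46%, and 83.5% of bases were covered, against 69.9%. Peaks of 700 to under 1000 bases were absent in 1.29%, split in 30.5% and narrower in 80.6%, with 74.5% of bases covered. In the opposite search 39 of 410 WTAP long peaks were split (9.51%, against 2.01%), 83 of 405 narrower (20.5%, against 18.7%) and 304 still long (74.1%, against 3.55%). Absent were 5 (1.22%, against 13.5%), and 95.3% of bases were covered, against 86.7%.

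In the SETD2 #1 list, compared with the same control, many long peaks were also split. Here 2 were absent (0.319%), against 27.0% of all, and 261 were split (41.6%, 37.7 to 45.6), against 5.84%. Of 625 with a peak, 497 were narrower (79.5%), against 63.2%, and 336 of the 627 still long (53.6%, 49.6 to 57.5), against 1.48%. Bases were covered to 86.3%, against 71.9%. Peaks of 700 to under 1000 bases were absent in 1.29%, split in 29.1% and narrower in 80.8%, with 79.1% of bases covered. Of 446 SETD2 #1 long peaks only 17 were split in the control (3.81%, against 1.21%), 53 were narrower (11.9%, against 14.2%) and 342 still long (76.7%, against 3.59%). None was absent, which allows up to 0.673%, against 8.07% of all SETD2 #1 peaks, and 99.0% of bases were covered, against 92.8%. These 4 comparisons share the control list, so they are not independent, and differences between them were not tested.

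SETD2 #2 knockdown, against its own control, had the lowest split share and the highest covered share of the 5 comparisons. None of the 370 long peaks of the second control was absent, which allows a share of up to 0.811%, against 20.5% of all. In SETD2 #2, 91 were split (24.6%, 20.3 to 29.3), against 2.81% of all peaks and 14.6% of peaks of 700 to under 1000 bases. A total of 204 were narrower (55.1%), against 41.9% of all and 50.7% of peaks of 700 to under 1000 bases, and 260 still long (70.3%, 65.3 to 74.9), against 1.50%, with 92.7% of bases covered, against 78.4%. Peaks of 700 to under 1000 bases were absent in 0.172%, with 88.5% of their bases covered. With an FDR of at most 1e-05 asked of both lists, the split share of the long peaks was 16.2%. The opposite search gave values nearer to these than in the other set. Of 356 SETD2 #2 long peaks, 70 were split in the second control (19.7%, 15.7 to 24.2, against 2.39%), 149 were narrower (41.9%, 36.7 to 47.2, against 31.1%) and 263 still long (73.9%, against 1.73%). None was absent, which allows up to 0.843%, against 14.5% of all SETD2 #2 peaks, and 95.4% of bases were covered, against 85.1%. Each direction starts from peaks chosen for their width in the list searched from, so the difference between the directions was not tested.

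**Figure D3:**
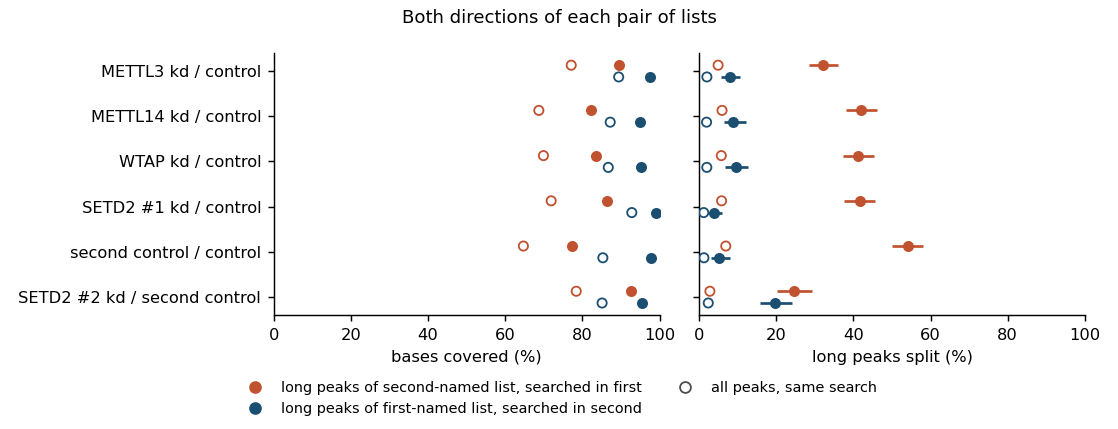
Bases covered (%, left) and long peaks split (%, right, with exact 95% intervals) for 6 pairs of lists, searched in both directions. Filled circles are long peaks and open circles all peaks. Control long peaks searched elsewhere (orange) are split in 32.1% to 54.1%, the long peaks of those other lists searched in the control (blue) in 3.81% to 9.51%, and the pair of SETD2 #2 and its own control lies closest together.

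The form of the differences was similar across the knockdown lists. Among the 627 control long peaks, 310 met a single long peak in METTL3, 232 in METTL14 and 230 in WTAP, while 253 did so in SETD2 #1. This single peak had a median of 97.4% to 98.1% of the length of the control peak. In SETD2 #2, 222 of 370 did so, with a median of 100% of their length. A single peak under 1000 bases was left at 62 control long peaks in METTL3, at 88 and 90 in METTL14 and WTAP, and at 74 in SETD2 #1. A single peak that ran on over several blocks took the place of 54, 42, 47 and 37. Where a long peak was split, it was mostly in 2 pieces: 141 of 201 in METTL3, 193 of 264 in METTL14, 186 of 259 in WTAP, 209 of 261 in SETD2 #1 and 78 of 91 in SETD2 #2. The median width of the widest gap was 119 to 149 bases. A stricter count kept only splits in which every gap had at least 100 bases. The split share was then 15.9% in METTL3, 25.2% in METTL14, 24.7% in WTAP, 24.1% in SETD2 #1 and 13.2% in SETD2 #2, against 36.5% in the second control. This stricter count was made for long peaks only.

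The block limit of the rule shaped the search from knockdown to control. Of the 481 METTL3 long peaks, 91 (18.9%) lay under a single control peak that spanned several blocks, as did 95 of 415 in METTL14, 94 of 410 in WTAP and 117 of 446 in SETD2 #1. Of the 370 second-control long peaks, 136 (36.8%) did so in the control. At chr19:47258757-47261207, plus strand, METTL3 and METTL14 held a long peak of 2451 bases, and the control held a peak of 2601 bases that continued into another block. A place with no long single-block peak in the control was therefore often covered by a wider peak that crossed an intron.

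**Figure D4:**
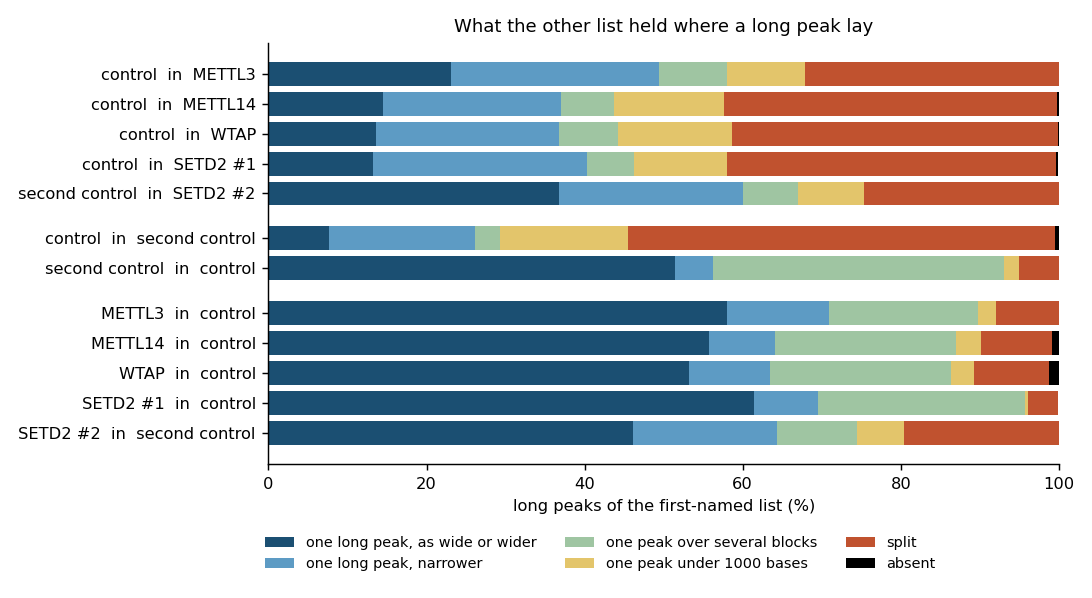
What the second-named list held at the long peaks of the first-named list, as a share (%) of those long peaks, for 12 searches. Bars from left to right are a single long peak as wide or wider, a single long peak that is narrower, a single peak over several blocks, a single peak under 1000 bases, several separate peaks (split), and no peak (absent). Control long peaks were split in 32.1% in METTL3 and 54.1% in the second control.

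Uncovered bases lay at both ends and inside. Of the bases of control long peaks not covered in METTL3, 32.2% lay at the 5′ end, 23.8% at the 3′ end and 44.0% inside. METTL14 gave 29.2%, 32.7% and 38.1%, and WTAP 29.8%, 30.6% and 39.6%. SETD2 #1 gave 33.3%, 25.6% and 41.1%, and SETD2 #2 38.7%, 18.0% and 43.3%. More bases were thus uncovered at the 5′ than at the 3′ end with METTL3 and both SETD2 shRNAs, and slightly fewer with METTL14 and WTAP. The second control, searched with the same control long peaks, gave 30.8%, 23.5% and 45.7%.

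Most narrowing was slight. Narrower than 80% of the member were 17.1% in METTL3, 32.1% in METTL14, 30% in WTAP, 23.0% in SETD2 #1, 44.7% in the second control and, of the second-control long peaks, 10.8% in SETD2 #2. Covered over less than 50% of their length were 13 control long peaks in METTL3 (2.07%), 53 in METTL14 (8.45%) and 48 in WTAP (7.66%). SETD2 #1 had 21 such peaks (3.35%) and the second control 49 (7.81%). In SETD2 #2, 2 of 370 (0.541%) were. Fully covered were 142, 84, 79 and 86 in METTL3, METTL14, WTAP and SETD2 #1. Identical start and end were found for 63, 34, 24 and 42. The values of this paragraph were computed for long peaks only, so whether other peaks differ in them was not tested.

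Weakly enriched long peaks were covered least in METTL14 and WTAP. The 209 control long peaks with the lowest fold enrichment, 3.12 to 16.8, were covered to 71.3% in METTL14 and 72.1% in WTAP, and to 85.7% in METTL3 and 84.3% in SETD2 #1. The 209 with the highest, 36.4 to 321, were covered to 88.7%, 90.5%, 92.5% and 88.3%. The contrast between weak and strong was thus 17.4 percentage points in METTL14, 18.5 in WTAP, 6.76 in METTL3, 3.96 in SETD2 #1 and 1.45 in the second control. For the second-control long peaks in SETD2 #2 it ran the other way, at -4.06. There the lowest group had 1.74 to 7.97 and the highest 12.6 to 120. In the opposite search, grouped by fold enrichment in the list searched from, it was -7.20 for METTL14, -7.85 for WTAP, 0.271 for METTL3 and 0.398 for SETD2 #1. It was 4.41 for the second control in the control, and 2.14 for SETD2 #2 in the second control. Still long were 29.2% of the lowest control group in METTL14 (23.1 to 35.9) and 22.5% in WTAP (17.0 to 28.8). The share was 43.5% in METTL3 (36.7 to 50.6) and 42.1% in SETD2 #1 (35.3 to 49.1). The difference between knockdowns was not tested. By p-value, the control long peaks with the weakest values were covered least in each list searched. Their cover was 82.5% in METTL3, 71.6% in METTL14, 74.7% in WTAP, 77.5% in SETD2 #1 and 67.6% in the second control.

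Longer members stayed long more often. Of the 174 control long peaks of 1500 bases or more, 78.2%, 70.7%, 71.8% and 78.7% were still long in METTL3, METTL14, WTAP and SETD2 #1. Of the 244 under 1200 bases, 48.0%, 33.6%, 30.3% and 35.7% were. The longer ones were also split more often, in 40.8%, 51.1%, 47.7% and 50.6%, against 23.4%, 34.4%, 35.2% and 35.2%. Shorter members lie nearer the limit of 1000 bases, so a small trim takes them below it.

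The longest peak of all lay at chr16:31087602-31093149 on the plus strand and had 5548 bases in the control. The longest single-block peak there had 4678 bases in METTL3, 4648 in METTL14, 4678 in WTAP, 5518 in SETD2 #1, 2879 in the second control and 2819 in SETD2 #2. It was whole in SETD2 #1, in 2 pieces in METTL3, METTL14 and WTAP, and in 4 pieces in both lists of the SETD2 #2 set. Most of its bases stayed under peaks, from 88.7% in the second control to 99.5% in SETD2 #1.

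The second longest, at chr16:89345483-89350852 on the minus strand, had 5370 bases in the control and 5040 in METTL3. It was in 2 pieces in each of the other 5 lists, with 93.9% of its bases covered in METTL14 and WTAP, 90.5% in SETD2 #1, and 85.5% in both lists of the SETD2 #2 set. At chr9:138376393-138380140, plus strand, a peak of 3748 bases was the only one of its gene in the control. METTL3, METTL14 and WTAP showed the same 2 pieces there, of 1020 and 2669 bases, with a gap of 59 bases. SETD2 #1 had 780 and 2819 bases with the same gap. The second control was cut there too, into 660 and 2429 bases with a gap of 569 bases, and SETD2 #2 was in 3 pieces, of 600, 211 and 2219 bases. Covered shares were 96.0% to 97.6% in the first 4 of these lists, 82.4% in the second control and 80.8% in SETD2 #2.

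A region at chr6:151670115-151673617, plus strand, was split in METTL3, METTL14 and WTAP and in no other list. The control peak had 3503 bases, and the list of SETD2 #1 held a peak of 3593, the second control 3832 and SETD2 #2 3712. METTL3 had 3 pieces there of 1318, 300 and 1617 bases, METTL14 had 2 of 1318 and 1947, and WTAP 3 of 1288, 779 and 899. The covered share was 92.3%, 93.2% and 84.7% in these 3 lists and 100% in the others. Its fold enrichment in the control was 8.65, among the 209 lowest of the long peaks.

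Some other regions, taken from the places with a long peak in all 7 lists and so long in each by choice, varied little in width in most lists. The places at chr16:31087602-31093149, chr9:138376393-138380140 and chr10:103825147-103827795 were also long in all 7 lists but varied more. At chr11:71725337-71727691, plus strand, all 7 lists held the same peak of 2355 bases. At chr19:10801206-10803093, plus strand, the peak had 1888 bases in 5 lists and 1858 in WTAP and the second control. At chr20:3764558-3767188, minus strand, it had 2631 bases in the control, 2661 in METTL3, 2631 in METTL14 and WTAP, 2571 in SETD2 #1, and 2302 in the second control. SETD2 #2 had 2 pieces there, of 2093 and 181 bases (86.4% covered, against 87.5% in the second control). A pair of neighbouring peaks on chromosome 6, at chr6:31783241-31785514 and chr6:31795512-31797736, kept 2214 to 2274 and 2195 to 2343 bases in the 7 lists. The handling of reads that match several places is not given in the sources used here, so whether neighbouring genes share reads was not tested.

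Among the 4 greatest losses, by number of bases, in METTL3 and in SETD2 #1, and absent from METTL14, was chr19:48789097-48790476, plus strand, the only peak of gene ENSG00000178150.8 in the control. It had 1380 bases there with a fold enrichment of 8.79. METTL3 covered 8.77% of it, METTL14 held no peak, WTAP covered 19.6% and SETD2 #1 13.2%. The second control held a peak of 1110 bases (80.4%) and SETD2 #2 one of 1230 (89.1%). The peak was thus nearly gone from the 4 lists that share the control and still long in both lists of the other set.

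The regions on chromosomes 10, 2 and 4 given next were chosen as greatest losses, by number of bases, in METTL14. Those on chromosomes 10 and 2 were chosen in WTAP as well. At chr10:129905929-129907609, minus strand, the control had 1681 bases. METTL14 covered 18.0% of it and WTAP 25.1%, against 66.2% in METTL3. SETD2 #1 held a single peak of 1711 bases there, the second control 1591 and SETD2 #2 2070. At chr2:131218074-131219807, minus strand, 1734 bases in the control were covered to 6.98% in METTL14 and 27.6% in WTAP, but also only to 43.2% in SETD2 #1, 36.3% in the second control and 39.7% in SETD2 #2. METTL3 kept 70.8%. At chr4:13602654-13604813, minus strand, 2160 bases were covered to 34.9% in METTL14 and 48.7% in WTAP, 86.2% in METTL3, 94.4% in SETD2 #1, 97.3% in the second control and 84.8% in SETD2 #2. Low cover in METTL14, and in WTAP on chromosomes 10 and 2, follows from that choice. At the chromosome 2 region both lists of the SETD2 #2 set were low too.

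Some regions were cut into many pieces. In METTL14 the most pieces, 7, lay at chr11:70331419-70333398, minus strand, where the control had 1980 bases, and 68.5% was covered. The same region had 4 pieces in METTL3 and 5 in the second control. In WTAP the most pieces were 5, found at chr18:77893664-77896710, plus strand, in gene ENSG00000101544.8, and at a region on chromosome 6. The 3047 control bases of the chromosome 18 region were in 3 pieces in METTL3 (83.4% covered), 6 in METTL14 (45.3%) and 5 in WTAP (67.8%). SETD2 #1 had 3 (79.5%). The second control had 3 pieces there (57.0%) and SETD2 #2 had 2 (65.8%). In SETD2 #1 the most pieces, 7, lay at chr14:105185849-105188812, plus strand, a region with 2964 control bases. It was covered to 45.7% in SETD2 #1, 26.4% in the second control and 49.6% in SETD2 #2, and to 90.0%, 77.8% and 80.9% in METTL3, METTL14 and WTAP. Its control p-value was weak for a long peak, with a log10 of -13.8. The chromosome 11, 18 and 14 regions were not cut in knockdowns alone, since the second control was in several pieces at each.

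For SETD2 #2 the greatest loss in bases, 744, was at chr10:103825147-103827795, plus strand, where the second control held 2649 bases. SETD2 #2 kept 1905 (71.9%), and SETD2 #1 had 2 pieces (85.4%). The peak had the same 2649 bases in the control, METTL3 and METTL14, and 3 pieces in WTAP (95.6%). The regions of this paragraph were chosen for bases lost in SETD2 #2, so its lower cover than the second control follows from the choice. The chromosome 10 region was covered less in both SETD2 lists than in both controls. The same held at chr22:50278182-50279231, plus strand. That region had 1050 bases in the second control and lost a larger share. It was covered to 34.4% in SETD2 #2, 77.2% in SETD2 #1, 80.3% in METTL14, 88.8% in WTAP and 100% in METTL3 and the control. At chr15:50646046-50647455, minus strand, SETD2 #2 covered 55.4%, SETD2 #1 83.0% and the control 85.2%. At chr4:1388338-1389597, plus strand, SETD2 #2 covered 50.2%, but SETD2 #1 covered more than the control, 97.6% against 95.2%.

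Only 6 genes had 3 or more long peaks in any list. Long genes can hold repeated sequence, and the handling of reads that match several places is not stated, so for these 6 genes whether reads are shared between repeats was not tested and their values are uncertain. In gene ENSG00000124942.13 on the minus strand, long peaks lay within chr11:62285296-62299842. The control had 3, METTL3 0, METTL14 3, WTAP 0, SETD2 #1 2, the second control 6 and SETD2 #2 6. Peaks covered 79.6% of these long-peak bases in the control, 41.8%, 53.5%, 40.6% and 71.6% in METTL3, METTL14, WTAP and SETD2 #1, against 97.7% in the second control and 99.3% in SETD2 #2. The gene was thus wider in the second control than in the control, the reverse of the long peaks as a whole.

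Long peaks were called in METTL14 alone in gene ENSG00000185567.6, minus strand, within chr14:105407839-105421272. METTL14 had 6 long peaks there with 12269 bases and fold enrichments of 92.8 to 746, and the other 6 lists had 0. Peaks covered 5.66% of these bases in the control, 0% in METTL3, 20.7% in WTAP, 2.95% in SETD2 #1, 3.20% in the second control and 1.49% in SETD2 #2. These bases are those of the METTL14 long peaks. Full cover in METTL14 therefore follows from the choice, and lower cover elsewhere follows from it in part. The gene had 6 peaks in the control with 846 bases and 18 in METTL14 with 15336 bases. The highest fold enrichment in the gene, 746, was also the highest of any METTL14 long peak. That peak had a log10 p of -250. The other long peaks of the gene had -33.5 to -76.9, weaker than the median of -206 for METTL14 long peaks.

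The other 4 such genes lay on chromosomes 1, 2, 10 and 16. Long peaks of the chromosome 1 gene, within chr1:152185817-152191452, numbered 2 in the control, 0 in METTL3, METTL14 and SETD2 #1, 2 in WTAP, 1 in the second control and 3 in SETD2 #2. Their bases were covered to 95.6% in the control, 95% in WTAP and 95.6% in SETD2 #2, but to 24.5% in METTL3, 58.8% in METTL14 and 21.1% in SETD2 #1. The second control covered 71.4%. SETD2 #1 was thus below its control here and SETD2 #2 above its own. The p-values of IP against input were weak for long peaks in the lists of this contrast. Their log10 was -12.4 and -16.4 in the control, -6.94 in the second control and -8.99 to -13.4 in SETD2 #2. The medians of long peaks in these lists were -163, -138 and -97.8. In the chromosome 10 gene, within chr10:129901941-129907609, METTL3, METTL14 and WTAP had 0 long peaks and the other lists 1 to 3.

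**Figure D5:**
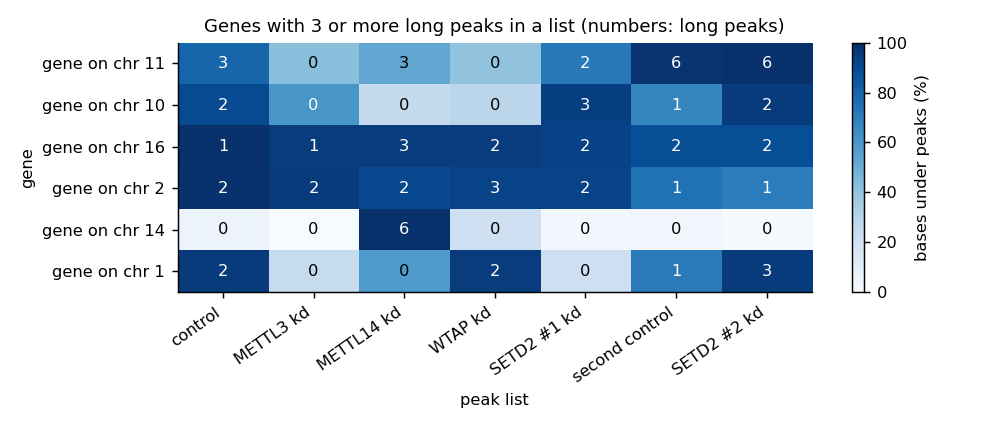
The 6 genes with 3 or more long peaks in a list (rows) in the 7 lists (columns). Numbers are long peaks in the list, and the shade is the share (%) of the gene's long-peak bases, joined over the lists, that lay under any peak. The gene on chromosome 14 has 6 long peaks in METTL14 and 0 in the other lists, and the gene on chromosome 11 has 6 in the second control and SETD2 #2.

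Joined over the lists, the long peaks fell at 946 places. Of these 906 had a peak of some width in all 7 lists, but only 106 (11.2%) had a long peak in all 7, and 294 (31.1%) in a single list. Of the 294, 132 were long in the control only, and 17 to 32 in each other list only. The control also had the most long places, 609 against 341 to 465 in the other lists. The 106 shared places had a median longest peak of 1610 bases in the control, 1513 in METTL3, 1429 in METTL14, 1438 in WTAP, 1376 in SETD2 #1, 1314 in the second control and 1270 in SETD2 #2.

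Of the 609 places long in the control, 206 were long in all 4 knockdowns that share it and 162 in none of them. Another 24 places were long in these 4 lists and not in the control. Both controls were long at 216 places, of which 24 were long in neither SETD2 list and 12 in none of the 5 knockdowns. Both SETD2 lists were long at 10 places where neither control was. The 24 places belong to the 216 and the 10 places do not, so these counts have no common base. The same counts were not made for all peaks, so whether long peaks differ from other peaks in them was not tested.

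At the limit of the rule, the control list had 44 single-block peaks within 30 bases below 1000 and 40 within 30 bases above it. The 3 members nearest the limit had 1004, 1006 and 1008 bases, and the 3 nearest peaks left out 999, 996 and 991. In METTL3, the places of the first 3 were covered to 97.0%, 53.0% and 98.7%, and of the last 3 to 67.7%, 73.6% and 75.9%. Lengths went in steps. Of all single-block peaks 92.0% were within 2 bases of a multiple of 30, and 51.7% of the long peaks were, against 16.7% for an even spread. A difference of 30 bases between lists is thus a single step.

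A called peak depends on read depth and transcript level as well as on methylation, and the lists give neither, so these cannot be told apart at any region named here. In these bulk cultures a change in fewer cells and a smaller change per cell cannot be told apart either.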

How the data were processed

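The m6A-seq of 42 HepG2 samples, 3 input and 3 IP libraries for each of 7 conditions, had been processed by the submitters with FastQC 0.11.5, TopHat2 2.1.1 and build hg19, per the submitters' processing notes. Per the labels, exomePeak lists were made from replicates 1 to 3 together. The version of exomePeak is not given in the sources used here, nor is the gene annotation. Per the file headers, the deposited tables hold a p-value of IP against input for each peak. The log10 of that p-value and of the FDR are deposited as scores without a fixed range. Fold enrichment in the deposited tables is a linear ratio of IP over input. Library depth is unknown from these files, and so is the precision it gives.

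Rows that repeated the position, strand and blocks of another were dropped (11 to 21 per list). Members had 1 block of at least 1000 bases. Overlap meant 1 or more shared block bases on the same strand. Shares carry exact Clopper-Pearson 95% intervals, and a count of 0 has a limit of 3 counts, both for counting error only. With 1 list per condition no test between conditions exists. Values were computed with scipy 1.17.1, pandas 2.3.3 and numpy 2.4.6 under Python 3.11.15, plotted with matplotlib 3.10.9, and the methods were tested on simulated data.

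Named regions are the longest members, those long in all 7 lists, those with the most uncovered bases or pieces per knockdown, absent members, members long in a knockdown only and those at the length limit. Classes by length, fold enrichment and p-value, peaks of 700 to under 1000 bases, and genes with 3 or more members in any list were added after values were seen. The members and lists were chosen with earlier results of these data known. Lists of genes by pathway or cell type, and the check of the targeted gene, were not used here because no identifier was paired with a symbol. Alternatives were other lengths, stricter lists, other overlaps and other definitions of narrower, split and place.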

Additional observations from a re-analysis of the deposited data

How the results depend on the processing

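No paired analysis was possible because each peak list pools replicates 1 to 3, and for the same reason no replicate could be left out. Of 364 values recomputed for the comparisons, 250 stayed within the 95% interval of the main value, or within 1.5 times a count, and 114 moved. Among them, no value moved when an overlap of 50% of the shorter peak was asked for, when peaks had to share the gene identifier or when repeated rows were kept. Read depth per library is unknown, so its part in these values was not tested.

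Below, values are for METTL3, METTL14, WTAP, SETD2 #1, the second control and SETD2 #2 in this order unless a list is named, with the control members searched in the first 5 and the second-control members in the last. With a length of at least 800 bases the members numbered 1120 in the control, then 856, 717, 729, 836, 696 and 661. The split share was 38.0% in METTL14, 36.9% in SETD2 #1 and 46.8% in the second control, and 39.8% stayed long in the second control. With at least 1500 bases the numbers were 174, then 129, 116, 118, 114, 86 and 85. The split shares rose to 40.8%, 51.1%, 47.7%, 50.6%, 69.5% and 33.7%, and to 8.14% for second-control members in the control. Still long were 56.3% in METTL3, 43.1% in METTL14, 46.0% in SETD2 #1, 28.2% in the second control and 65.1% in SETD2 #2. Bases covered were 85.2% in METTL14 and 86.4% in WTAP, and 0 members were absent from METTL14, WTAP, SETD2 #1 or the second control.

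With the largest block of any peak as the length, the numbers were 1218 in the control, then 901, 766, 805 and 774 in the knockdowns of that set. Still long were 67.8%, 57.1%, 59.0%, 60.6% and 41.5% in the first 5, and 94.8% of second-control members in the control. Narrower were 74.2% in METTL14 and 74.1% in WTAP, with 86.0% and 87.0% of bases covered.

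Stricter lists on both sides lowered the split share and raised absence. With an FDR of at most 1e-05 the split shares were 26.3%, 30.3%, 30.8%, 31.6%, 40.8% and 16.2%, and absent were 0.797%, 3.03%, 1.59%, 1.59% and 2.87% in the first 5. The authors' shorter lists gave splits of 26.5%, 33.3%, 31.7%, 32.4%, 42.6% and 17.3%, with 1.75% absent in METTL14, 1.28% in WTAP and 2.23% in the second control. A fold enrichment of at least 3 gave 26.3%, 33.3%, 29.3%, 33.2%, 38.4% and 18.8%, with 1.59% absent in METTL14, 2.55% in WTAP and 2.39% in the second control, where 73.2% of bases were covered. At the named regions, the covered share moved by over 1.5 times in 16 of 39 cases with the stricter FDR, 16 with the shorter lists and 5 with the fold minimum.

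Splits in which every gap had at least 100 bases were 15.9%, 25.2%, 24.7%, 24.1%, 36.5% and 13.2%. Narrower than 80% of the member were 17.1%, 32.1%, 30%, 23.0%, 44.7% and 10.8%, and 2.16% of second-control members in the control. Narrower than 50% were 2.07%, 8.31%, 7.35%, 2.88%, 6.89%, 0.27% and 0%. In genes with 3 or more peaks, the 5′-most share was 9.76% in the control, then 10.9%, 10.4%, 12.5%, 14.6%, 14.6% and 14.9%. The 3′-most share was 41.5% in the control, 42.5% in METTL3, 39.2% in METTL14, 31.5% in SETD2 #1, 27.0% in the second control and 26.1% in SETD2 #2. In each setting that gives a split share, that of control members was higher in the second control than in any of the 4 knockdowns.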
